A study of Mus musculus with 6 samples.

Results

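The 10 genes described here encode enzymes and receptors of the prostaglandin pathway: Pla2g4a, Ptgs1, Ptgs2, Ptges, Ptges2, Ptgis, Ptgds, Ptger2, Ptger4 and Hpgd. They were taken by name, as genes of 1 pathway, from the 21159 named genes measured on each array, and all 10 were found, each on 1 transcript cluster. The cells were B/CMBA.ov, a line from the ovary of BALB/c mice, grown in culture. On 3 arrays the cells had received a synthetic mimic of mouse miR-15a-3p and on 3 arrays a negative control mimic, each at 20 nM by lipid transfection, and total RNA was taken 48 h later. Both groups therefore share the line, the strain, the reagent and the dose, and a single line was used. The question is how mRNA levels in cells that received this microRNA differ from those in cells that received the control. The labels do not tell whether the replicates came from separate cultures, so the p-values below take in only array-to-array spread, possibly technical, and 3 arrays a group limit the precision.

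Prostaglandins are made from arachidonic acid that a phospholipase A2 frees from membranes. A cyclooxygenase turns it into the short-lived prostaglandin H2, and terminal synthases make prostaglandin E2, D2 or I2 from that. These leave the cell and act on G protein-coupled receptors of neighbouring cells. A dehydrogenase begins the breakdown of prostaglandin E2. In the ovary the inducible cyclooxygenase, prostaglandin E2 and its EP2 receptor are known for their part in ovulation and in the expansion of the cumulus around the oocyte.

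miR-15a-3p comes from the 3′ arm of its precursor hairpin. It is shown with the better known 5′ arm of the same hairpin because the arms differ in their seed, bases 2 to 8, given in capitals. Both are RefSeq sequences on the minus strand of GRCm38.p6, at chr14:61632038-61632059 for the 3′ arm and chr14:61632075-61632096 for the 5′ arm.
mmu-miR-15a-3p: cAGGCCAUacugugcugccuca
mmu-miR-15a-5p: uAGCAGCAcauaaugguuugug

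The clearest pattern among the 10 genes was an opposite change of the 2 cyclooxygenase mRNAs. Ptgs1, the constitutive enzyme known as COX-1, rose with the miR-15a-3p mimic to 1.35 times the control level, and Ptgs2, the inducible enzyme known as COX-2, fell to 0.772 times the control level. Ptgis, the prostacyclin synthase, fell to 0.831 times. The other 7 genes did not pass the test. A gene was called at a limma adjusted p under 0.05, with Benjamini-Hochberg adjustment over all 21159 genes. By this rule 1 of the 10 genes rose and 2 fell, against 6.08% of all genes that rose and 5.64% that fell, 11.7% in all. All 3 called genes belonged to the brighter 6, whose mean log2 values were not below 7.27, the median over genes. In that brighter part of the array 19.2% of genes were called. The median log2 fold change of the 10 genes was -0.02, beside 0.01 for all genes. Of the 10 genes 5 had all 3 values of one group above all 3 of the other, against 29.6% of all genes.

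Array medians ran from 6.94 to 7.01 on the log2 scale, and r over genes was 0.9963 to 0.9982 for arrays within a group and 0.9925 to 0.9944 for arrays of different groups. Bright markers were found for epithelium, mesothelium and fibroblasts: Cdh1, Krt18, Msln, Upk1b, Col1a1 and Dcn each averaged 11.04 or more. The brightest was the fibroblast marker Dcn, at 12.24. The epithelial marker Epcam, at 5.87, and the fibroblast marker Lum, at 5.35, were dim. All 5 granulosa cell markers, all 4 theca and luteal, all 4 endothelial and all 4 oocyte markers lay below the median of gene means, and so did 4 of 5 leukocyte markers. The label gives the ovary as the tissue, and the markers that define its follicular cells were thus dim. Of 5 mesothelial markers 3 fell and 0 rose, and their mean log2 value lay between 9.65 and 9.78 on the mimic arrays and between 10.15 and 10.21 on the control arrays. Of 6 epithelial markers 3 rose and 1 fell, with list means of 9.14 to 9.26 on the mimic arrays and 9.01 to 9.05 on the control arrays. Of 5 fibroblast markers 1 rose and 2 fell, with list means of 9.19 to 9.26 on the mimic arrays and 9.29 to 9.31 on the control arrays. Of 5 leukocyte markers 0 passed limma's test and 0 had an unadjusted p under 0.05, with list means of 6.0 to 6.12 on the mimic arrays and 5.97 to 6.07 on the control arrays. Among the endothelial and the oocyte markers 1 of 4 each fell, Tek and Ddx4, and 0 of the granulosa, theca and luteal markers passed limma's test. Of these 9 markers 2 had an unadjusted p under 0.05: Foxl2, with a log2 fold change of -0.22 (adjusted p = 0.098), and Lhcgr, with 0.22 (adjusted p = 0.052). The part of these shifts in the results below was not tested, and fewer cells of a kind cannot be told apart from less RNA in each cell.

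**Figure D1:**
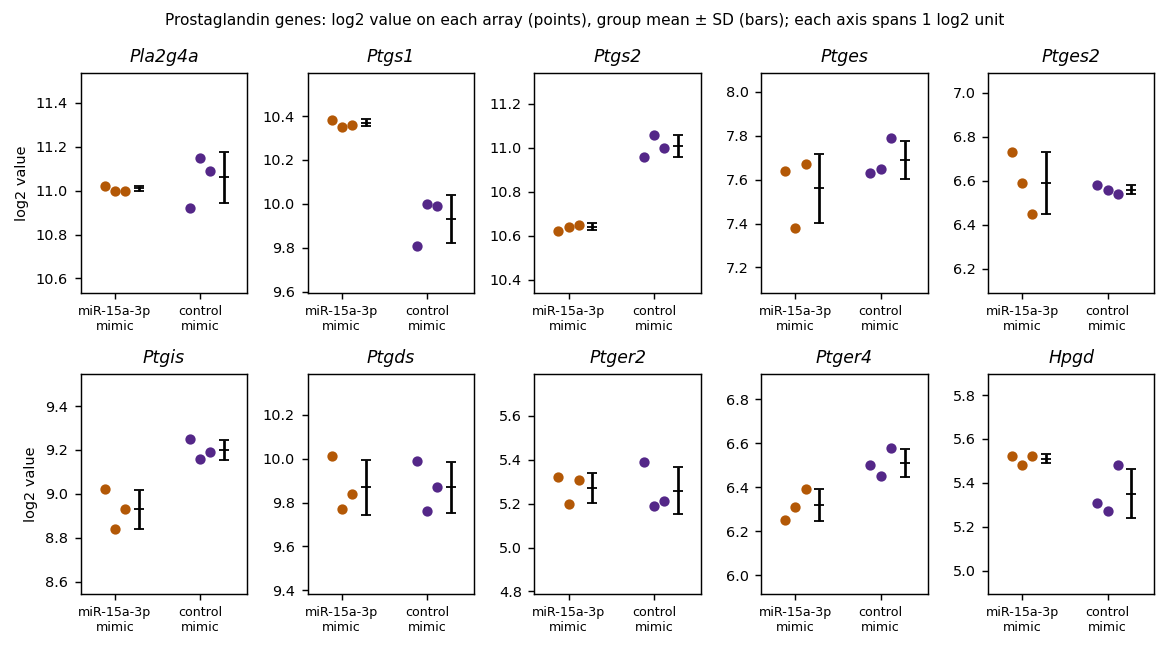
Log2 values of the 10 prostaglandin genes on each array, with the miR-15a-3p mimic left of the control mimic; points are arrays, bars the group mean ± SD (n = 3), and each vertical axis spans 1 log2 unit. The mimic arrays of Ptgs1, at 10.35 to 10.38, lie above all control arrays, and those of Ptgs2, at 10.62 to 10.65, lie below all of theirs.

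Pla2g4a, the cytosolic phospholipase A2 that releases arachidonic acid, had log2 values of 11.02, 11.00 and 11.00 on the mimic arrays, against 10.92, 11.15 and 11.09 on the control arrays. The mimic values lay within the span of the controls, which differed more among themselves. The log2 fold change was -0.05, with a 95% interval from -0.21 to 0.12, so that a change beyond 0.865 or 1.08 times the control level lies outside this interval.

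Ptgs1 had log2 values of 10.38, 10.35 and 10.36 on the mimic arrays, against 9.81, 10 and 9.99 on the control arrays. Every mimic array was higher than every control array, and the mimic arrays were tightly grouped while control replicate 1 stood below the other controls. The mean of the mimic arrays was 10.37 ± 0.015 and that of the control arrays 9.93 ± 0.108 (SD, n = 3). The difference of 0.43 ± 0.07 (SE) on the log2 scale passed the limma test with an adjusted p of 0.0039. In linear terms this was 1.35-fold, with a 95% interval from 1.21 to 1.51. The call was kept in all 13 alternative fits, with adjusted p up to 0.020 and log2 fold changes from 0.37 to 0.47.

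Ptgs2 moved the other way. Its log2 values were 10.62, 10.64 and 10.65 on the mimic arrays, against 10.96, 11.06 and 11.00 on the control arrays. Every mimic array was lower than every control array, and both groups were tight. Mimic arrays averaged 10.64 ± 0.0162 and control arrays 11.01 ± 0.0507 (SD, n = 3). The log2 difference was -0.37 ± 0.06 (SE), with a limma adjusted p of 0.0039. The ratio of 0.772 had a 95% interval from 0.703 to 0.848. This call too was kept in all 13 alternative fits, with adjusted p up to 0.024 and log2 fold changes from -0.40 to -0.35. Its array values stayed among the brighter ones in both groups, so Ptgs2 was lowered and not switched off.

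**Figure D2:**
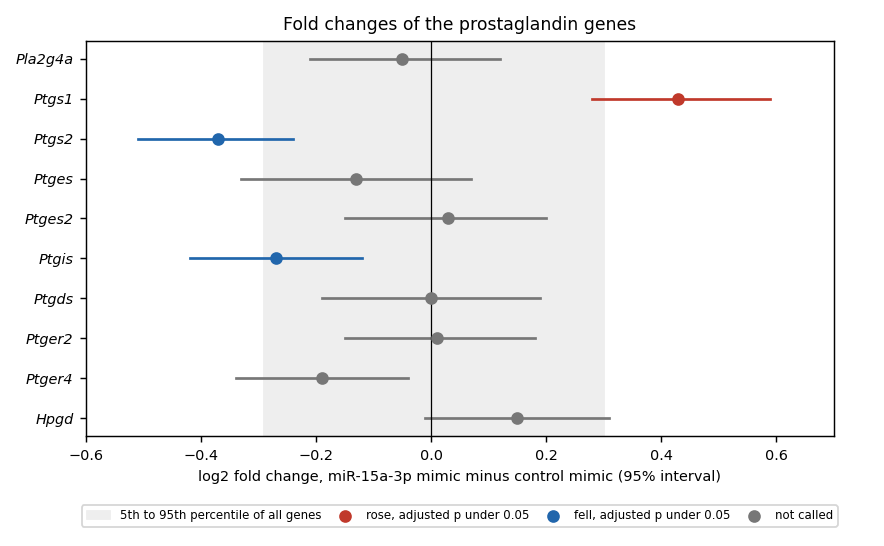
Log2 fold change of each prostaglandin gene, miR-15a-3p mimic minus control mimic, with its 95% interval from the limma fit (n = 3 arrays each); colours mark the direction of called genes and the grey band spans the 5th to 95th percentile of all 21159 genes, -0.29 to 0.30. Ptgs1 at 0.43 and Ptgs2 at -0.37 lie outside the band on opposite sides, and the other 8 genes lie inside it.

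The promoter windows of the 2 cyclooxygenase genes are printed here because their mRNAs changed in opposite directions. Each window is 300 bases of RefSeq's GRCm38.p6 sequence on the plus strand, 250 before and 50 after the annotated start, at chr2:36230176-36230475 for Ptgs1 and chr1:150099781-150100080 for Ptgs2. RefSeq promoter windows were at hand for 9 of the 10 genes. Capitals mark matches on either strand to 5 motifs: the E-box CACGTG, the cyclic AMP response element TGACGT, the C/EBP site TTGCGCAA, the TATA box TATAAA and the GC box GGGCGG.
Ptgs1: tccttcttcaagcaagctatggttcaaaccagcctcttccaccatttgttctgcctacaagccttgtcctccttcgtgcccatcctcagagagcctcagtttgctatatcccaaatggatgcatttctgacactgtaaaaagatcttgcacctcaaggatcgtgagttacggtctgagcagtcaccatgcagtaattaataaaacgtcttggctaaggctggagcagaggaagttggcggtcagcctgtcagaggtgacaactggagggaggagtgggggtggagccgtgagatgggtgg
Ptgs2: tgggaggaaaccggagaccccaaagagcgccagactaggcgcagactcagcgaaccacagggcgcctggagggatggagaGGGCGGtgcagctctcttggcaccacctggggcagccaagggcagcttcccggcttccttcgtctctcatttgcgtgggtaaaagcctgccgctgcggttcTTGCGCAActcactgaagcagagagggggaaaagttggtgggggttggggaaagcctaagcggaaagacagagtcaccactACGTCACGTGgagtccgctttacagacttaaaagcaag

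The Ptgs2 window held 4 of the 5 motifs once each and the Ptgs1 window held 0, and their GC contents were 59.3% for Ptgs2 and 50.7% for Ptgs1, beside a median of 52.7% over all windows. Positions were counted with the first base of the annotated transcript as 1. The GC box of Ptgs2 began at position -170, the C/EBP site at -69, the cyclic AMP response element at 13 and the E-box at 17, and the last pair overlap. Where transcription begins in these cells was not measured, so these positions do not show which sites lie within the transcript. Among all 32851 promoter windows of this length, the C/EBP site stood in 0.183%, the E-box in 7.15%, the cyclic AMP response element in 7.51%, the TATA box in 13.6% and the GC box in 35.7%. The 5 motifs were picked and not found by a search, and some are sites of factors in the list of Ptgs2 regulators below. The count of 4 against 0 depends on that choice and was not tested. The windows are a description of letters: no binding was measured on these arrays, and a missing match says only that these letters are not in the window.

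Among the terminal synthases only Ptgis was called, and differences between synthases were not tested. Ptgis, which makes prostacyclin (prostaglandin I2), had log2 values of 9.02, 8.84 and 8.93 on the mimic arrays, against 9.25, 9.16 and 9.19 on the control arrays. All mimic arrays were lower than all control arrays, and mimic replicate 1 came nearest to them. Means were 8.93 ± 0.0883 on mimic arrays and 9.20 ± 0.0444 on control arrays (SD, n = 3). The log2 difference of -0.27 ± 0.07 (SE) had a limma adjusted p of 0.032, and the ratio of 0.831 had a 95% interval from 0.747 to 0.923. The call was less firm than those of the cyclooxygenases. It was lost in 5 of the 6 fits that left out an array: without mimic replicate 2 (adjusted p = 0.11), mimic replicate 3 (0.099), control replicate 1 (0.083), control replicate 2 (0.055) or control replicate 3 (0.11), with log2 fold changes between -0.31 and -0.22 over the 6 fits.

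Ptges, the inducible microsomal prostaglandin E synthase that works with COX-2, had log2 values of 7.64, 7.38 and 7.67 on the mimic arrays, against 7.63, 7.65 and 7.79 on the control arrays. The groups overlapped, and mimic replicate 2 stood below all other arrays. The log2 fold change was -0.13, with a 95% interval from -0.33 to 0.07 (limma adjusted p = 0.44). Ptges2, a second membrane-associated prostaglandin E synthase, had 6.73, 6.59 and 6.45 on the mimic arrays, against 6.58, 6.56 and 6.54 on the control arrays, where the mimic values lay on both sides of the controls. Its log2 fold change was 0.03, with an interval from -0.15 to 0.20. Ptgds, which makes prostaglandin D2, had 10.01, 9.77 and 9.84 on the mimic arrays, against 9.99, 9.76 and 9.87 on the control arrays. Both groups of Ptgds covered nearly the same span, and the interval ran from -0.19 to 0.19.

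The receptors Ptger2 and Ptger4 encode EP2 and EP4, which answer prostaglandin E2 by raising cyclic AMP. Ptger4 had log2 values of 6.25, 6.31 and 6.39 on the mimic arrays, against 6.5, 6.45 and 6.58 on the control arrays. The groups did not overlap, with the mimic arrays lower, but the test over all genes was not passed: the log2 fold change was -0.19 ± 0.07 (SE), with an interval from -0.34 to -0.04 and a limma adjusted p of 0.11 (unadjusted p = 0.019). Over the 12 alternatives that kept it, its adjusted p ran from 0.078 to 0.37. Ptger2 had 5.32, 5.20 and 5.31 on the mimic arrays, against 5.39, 5.19 and 5.21 on the control arrays. These values overlapped wholly and were dim, and the interval of the log2 fold change ran from -0.15 to 0.18.

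Hpgd, the dehydrogenase that begins the breakdown of prostaglandins, had log2 values of 5.52, 5.48 and 5.52 on the mimic arrays, against 5.31, 5.27 and 5.48 on the control arrays. The lowest mimic array and control replicate 3 were level to 2 decimals. Hpgd is counted above among the genes whose groups did not overlap only through the digits beyond these. The log2 fold change was 0.15, with an interval from -0.01 to 0.31 (limma adjusted p = 0.23). Ptger2 and Hpgd were below a mean log2 value of 6, and Ptger4 and Ptges2 below the median of gene means, where array signal lies closer to background. No detection call came with the values, so a mean this low does not show that the mRNA was present.

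The authors' deposited table compares the same groups probe set by probe set and shows how evenly each mRNA moved. Its analysis has the variance of 2 arrays against 3 (0.833 times the error variance, where 3 against 3 would give 0.667), as if 1 array had been left out, which the table does not name. Over 16179 transcript clusters its fold changes had r = 0.929 with those of all 6 arrays and r = 0.941 with those computed without mimic replicate 1. In the authors' deposited table, p was under 0.05 and the mimic higher in 5.51% of all 241419 probe sets, and lower in 6.44%. Only probe sets that carry the gene's symbol were counted, so 12 of the 13 in the cluster of Ptgs1 and 7 of the 9 in that of Ptgds. For Ptgs1 the authors' deposited table had all 12 of these 12 probe sets higher with the mimic, 6 of them with p under 0.05, and ratios from 1.30 to 1.98. For Ptgs2 the authors' deposited table had 13 of 13 lower, 8 of them with p under 0.05, and ratios ran from 0.533 to 0.962. For Ptgis the authors' deposited table had 11 of 12 probe sets lower, 7 with p under 0.05, and ratios from 0.645 to 1.15. The 3 called genes thus moved along most of their probe sets and not at a single one. Probe sets of 1 gene share its RNA and are not replicates.

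The remaining genes were mixed in the authors' deposited table. Ptger4 had 5 of 6 probe sets lower there, 2 with p under 0.05, while 1 was higher with p under 0.05, and its ratios ran from 0.522 to 1.16. Pla2g4a had 13 of 19 lower in the authors' deposited table, 3 with p under 0.05, and Ptgds had 5 of 7 lower, 1 with p under 0.05. Ptges, Ptges2, Ptger2 and Hpgd had 0 probe sets with p under 0.05 in either direction in the authors' deposited table. The authors' shorter deposited list, of 1768 probe sets at a signed fold of -2 or lower, held 0 of the 96 probe sets of these 10 genes. It holds 0.732% of all probe sets, so a count of 0 among 96 says nothing particular of these genes.

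**Figure D3:**
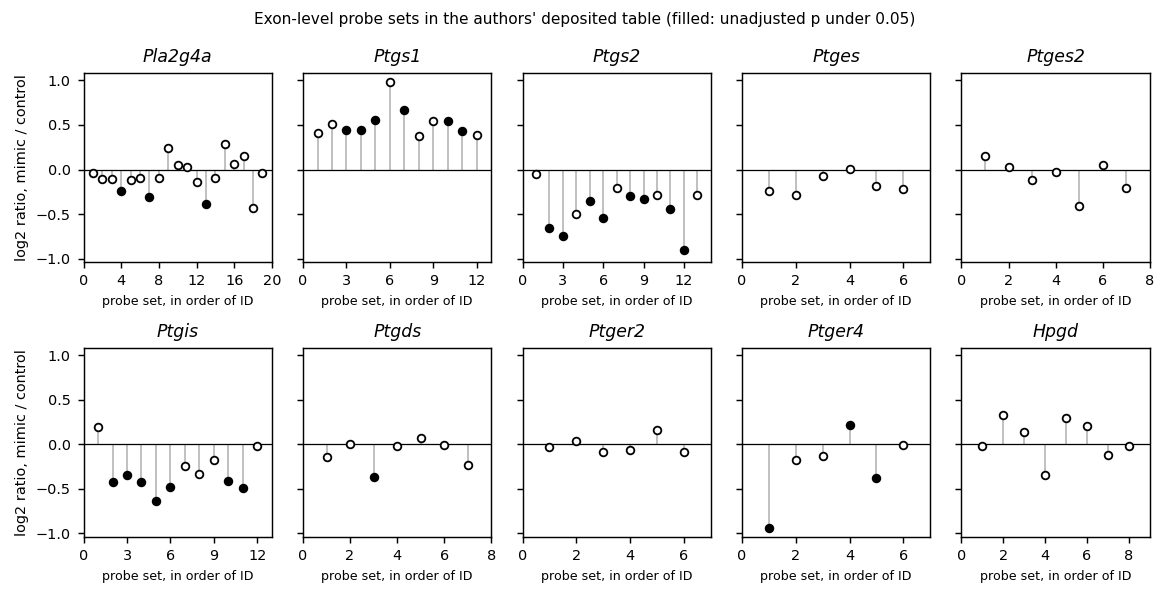
Log2 ratio, miR-15a-3p mimic over control mimic, of each exon-level probe set of the 10 genes in the authors' deposited table, in order of probe set ID; filled points have an unadjusted p under 0.05. All 12 Ptgs1 points lie above 0 and all 13 Ptgs2 points below it, while the points of Pla2g4a lie on both sides.

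Other genes around the pathway were followed in 8 lists, with 123 of 126 genes measured. Of these 7 rose and 13 fell, 16.3%, beside 11.7% of all genes, and their median log2 fold change was 0.00. Below the median of gene means lay 45 of the 123, and of genes at or above that median 19.2% were called. Of 18 genes that free or recapture arachidonate, 4 fell and 0 rose by limma, 22.2% beside 11.7% of all genes. A limma unadjusted p under 0.05 was found for 8 of them, and for 24.1% of all genes. Lpcat3, an acyltransferase that puts arachidonate back into phospholipids, averaged 10.49 ± 0.0227 on mimic arrays and 11.03 ± 0.0294 on control arrays (SD, n = 3), and its log2 fold change of -0.54 had a limma adjusted p of 0.00046. All 15 of its probe sets were lower in the authors' deposited table, and p was under 0.05 for 14 of them. Mgll, the monoacylglycerol lipase that can supply arachidonate, had a log2 fold change of -0.40, the lysosomal phospholipase gene Pla2g15 -0.26, and Acsl4, which activates arachidonate with coenzyme A, -0.24. The calls of these 3 were each lost without most single arrays: 2 of 6 such fits kept Mgll, 1 of 6 Pla2g15 and 1 of 6 Acsl4.

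Of 7 other prostanoid synthases and reductases, among them the thromboxane synthase gene Tbxas1 and the cytosolic prostaglandin E synthase gene Ptges3, 0 passed the limma test, here and in all 13 alternative fits, and 1 had an unadjusted p under 0.05, beside 24.1% of all genes. The latter was Hpgds, with a log2 fold change of 0.21 (limma adjusted p = 0.059). The log2 fold changes of the 7 lay between -0.12 and 0.21. Of 7 other prostanoid receptors 0 passed limma's test, likewise in every one of the 13, and 2 had an unadjusted p under 0.05, a share near the 24.1% of all genes. Their log2 fold changes lay between -0.21 and 0.11. The prostacyclin receptor gene Ptgir had log2 values of 6.61, 6.46 and 6.55 on the mimic arrays, against 6.70, 6.77 and 6.76 on the control arrays, a log2 fold change of -0.21 (limma adjusted p = 0.074). Ptgir was named after its values were seen, as the receptor for the product of Ptgis. A joint change of Ptgis and Ptgir was not tested. The other receptor gene with an unadjusted p under 0.05 was Ptger1, with a log2 fold change of -0.20 (limma adjusted p = 0.12). Of the 7 receptors 6 lay below the median of gene means.

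Of 5 measured genes of prostaglandin transport and later breakdown, 1 rose and 1 fell, 40.0% beside 11.7% of all genes. Below the median of gene means lay 0 of the 5, and of genes at or above that median 19.2% were called. Abcc4, an export pump that carries prostaglandins and cyclic nucleotides out of cells, had log2 values of 8.18, 7.96 and 8.08 on the mimic arrays, against 7.09, 7.46 and 7.33 on the control arrays. Every mimic array was higher than every control array, and the log2 difference of 0.78 ± 0.10 (SE; limma adjusted p = 0.001) was larger in size than that of any of the 10 genes above. Of its 31 probe sets, 25 were higher in the authors' deposited table, 10 with p under 0.05. Ptgr1, a reductase that acts after Hpgd, fell with a log2 fold change of -0.31, a call kept in 1 of the 6 fits that left out an array.

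In the other branches of arachidonate metabolism, 1 of 16 genes rose and 1 fell, 12.5%, a share near the 11.7% of all genes. Alox5ap, which presents arachidonate to the lipoxygenase that makes leukotrienes, averaged 8.46 ± 0.075 on mimic arrays and 8.05 ± 0.0937 on control arrays (SD, n = 3; log2 fold change 0.41). The lipoxygenase gene Alox5 itself was dim, at 5.99 with the mimic and 5.90 with the control. Ephx2, the soluble epoxide hydrolase, averaged 9.41 ± 0.094 on mimic arrays and 9.87 ± 0.0751 on control arrays (SD, n = 3; log2 fold change -0.46), and the authors' deposited table gave p under 0.05 for 16 of its 21 probe sets, all of these lower. Both calls were kept in all 13 alternative fits.

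Downstream of the receptors, 33 genes of cyclic AMP signalling were measured, and 1 of them rose and 0 fell by limma, 3.03% beside 11.7% of all genes. A limma unadjusted p under 0.05 was found for 9, a share near the 24.1% of all genes. The gene that rose was Atf1, a factor of the CREB family (log2 fold change 0.22, limma adjusted p = 0.048), a call kept in 1 of the 6 fits without an array. Of 24 genes known to act on Ptgs2 transcription or mRNA decay, 1 rose and 2 fell, 12.5%, beside 11.7% of all genes. Only 3 of the 24 lay below the median of gene means, and of genes at or above it 19.2% were called. Cebpd, a C/EBP transcription factor, had log2 values of 7.67, 7.72 and 7.76 on the mimic arrays, against 8.20, 8.31 and 8.35 on the control arrays, a log2 fold change of -0.57 (limma adjusted p = 0.00067), and was read by 1 probe set. Myd88, the adaptor of the interleukin-1 and Toll-like receptors, fell with a log2 fold change of -0.38, and Mapk14, the p38 kinase gene, rose with 0.36, although its call was kept in only 3 of the 6 fits without an array.

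Of 13 genes known for a part in ovulation and cumulus expansion, 3 rose and 5 fell, 61.5% in all beside 11.7% of all genes. Only 2 of the 13 lay below the median of gene means, and of genes at or above it 19.2% were called. The list was chosen with results known and was not tested as a list. Has2, the hyaluronan synthase of cumulus expansion, had a log2 fold change of -1.56, the epidermal growth factor-like ligand gene Btc -1.10, and Vcan, the matrix proteoglycan versican, -0.80. Areg, another ligand of this family, averaged 8.68 ± 0.019 on mimic arrays and 8.07 ± 0.0826 on control arrays (SD, n = 3). Its log2 fold change of 0.62 was opposite in direction to that of Btc, and the 4 genes named from this list were called in all 13 alternative fits. The authors' deposited table had p under 0.05 and lower values for 6 of 6 Has2 and 14 of 15 Vcan probe sets, while 6 of 7 Areg probe sets were higher, 3 with p under 0.05.

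**Figure D4:**
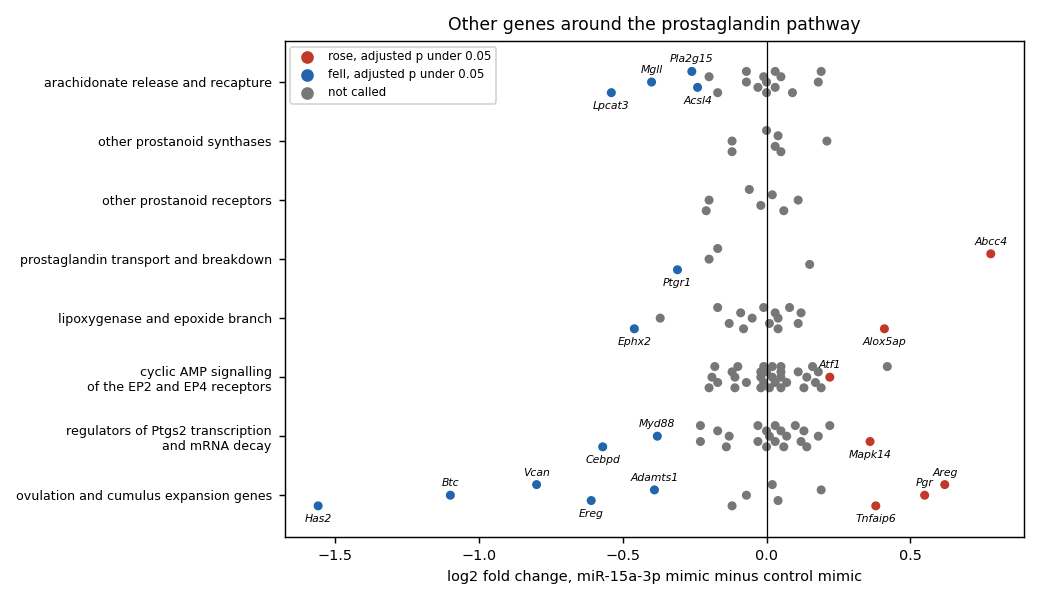
Log2 fold changes, miR-15a-3p mimic minus control mimic, of 123 genes in 8 lists around the prostaglandin pathway; each point is a gene, offset vertically for visibility, and colours mark genes called at a limma adjusted p under 0.05. Called genes lie on both sides of 0, from Has2 at -1.56 to Abcc4 at 0.78, and the lists of other synthases and receptors hold none (0 of 7 each).

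Ptgs2 had the smallest p of the 10 genes, by a narrow margin over Ptgs1, and the profiles most like it over the 6 arrays were looked up as a description. The highest Pearson correlations were with Mme (r = 0.9996), Dcn (0.9993), Msmo1 (0.9992), Man2a1 (0.9991) and Depp1 (0.9989). These 5 genes encode the peptidase neprilysin, the proteoglycan decorin, a sterol oxidase of cholesterol synthesis, a mannosidase of the Golgi and a protein linked to autophagy. Dcn is also among the fibroblast markers that fell. All 5 were lower with the mimic, with log2 fold changes from -0.95 for Mme to -0.30 for Dcn, and all 5 were called, Dcn not without control replicate 3 (adjusted p = 0.057). The 6 points share the 3 against 3 grouping. Altogether 1262 genes, 5.96% of all, reached r = 0.9 with Ptgs2, and 1015 genes had r of -0.9 or below. Among the prostaglandin genes, r with Ptgs2 was 0.87 for Ptgis, 0.84 for Ptger4, 0.51 for Ptges and 0.45 for Pla2g4a. It was -0.14 for Ptgds, -0.21 for Ptger2, -0.22 for Ptges2, -0.77 for Hpgd and -0.91 for Ptgs1.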

How the data were processed

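The values on each array were log2 values of 35556 transcript clusters, normalized and summarised by the authors. Partek, Affymetrix Expression Console, MAS5 and RMA are listed as tools per the submitters' processing notes, without versions or what each did. The labels and file headers name no build for the array's gene annotation. That the deposited values are log2 follows from their range. A second deposited table gives an unadjusted p-value, a ratio and further scores (signed fold, sums of squares) for 241419 exon-level probe sets, per the file headers.

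Clusters were named from the probe sets whose IDs lie between their own ID and the next, with symbols updated through RefSeq (GRCm38.p6, names only). Exactly 1 symbol was found for 24149 clusters, and the brightest cluster was kept per gene. Over 16179 named clusters with at least 4 probe sets, the 2 tables' fold changes had r = 0.929 across genes.

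limma 3.58.1 (lmFit, eBayes; R 4.3.3) was fitted over all 21159 genes with no filter or block, two-sided. On simulated data of 21159 genes, 58 of 100 genes changed by a log2 of 0.5 and 97 of 100 changed by a log2 of 1 were recovered, with 8 false among 163 calls. No other genes were changed there, a far smaller share than the 11.7% called in the data. The simulation checks the code, and its recovery rates do not carry over to these arrays. All 13 alternatives are described at the end. The 10 genes, the lists and the tests were chosen with earlier results of these data known. All 10 genes were named, up to 4 called genes per list by smallest adjusted p, and the 5 profiles most like that of the gene with the smallest p. Some uncalled genes, such as Ptgir, Ptger1 and Alox5, were named outside this rule. Lists are described by counts and medians only.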

Additional observations from a re-analysis of the deposited data

How the results depend on the processing

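The 3 calls among the 10 prostaglandin genes were the same in number under quantile normalization, median centring, both filters on dim genes (a mean of 6, or the median, as the lowest kept), the mean of all clusters of a gene, and a variance prior with intensity trend and robust estimation together; leaving out an array left 2 or 3. The median log2 fold change of the 10 genes lay between -0.061 and -0.005 with an array left out, and was -0.088 over the genes that either filter kept. Signs changed only for genes near 0 that were not called: with an array left out, Ptges2 lay between -0.041 and 0.10, Ptgds between -0.069 and 0.06, Ptger2 between -0.022 and 0.08, and Pla2g4a between -0.11 and 0.0016, and Ptgds was -0.0097 with median centring. The number of all genes called, 2480, lay between 1280 (without control replicate 3) and 2060 with an array left out, and was 1547 without mimic replicate 3. It was higher, at 3129, with quantile normalization and at 3198 with the intensity trend and robust option together. The filter at 6 gave 2788 and the median filter 2943. The 20 calls among other pathway genes became 12 to 18 with an array left out (12 without mimic replicate 3, 13 without mimic replicate 2). They became 26 with quantile normalization, 24 with the filter at 6, 28 with the median filter and 25 with the trend and robust option. The list of Ptgs2 regulators, with 3 calls, had 6 with quantile normalization or the median filter and 5 with the intensity trend and robust option together, and the cyclic AMP list, with 1, had 0 with median centring, 2 with the filter at 6 and 3 with the median filter. With the replicate number as a block, 13 other pathway genes and 2 of the 10 were called, the call of Ptgis being lost (adjusted p = 0.06), and the arachidonate, transport and cyclic AMP lists had 2, 1 and 0 calls. Deviations of same-numbered arrays from their group means had r = -0.0542, -0.2836 and 0.0384 over genes. With 3 arrays a group these values cannot show whether same-numbered arrays were handled together, which the labels do not tell. The causes of these moves were not tested. With 3 arrays a group and no detection call, changes of the dim genes Ptger2, Hpgd, Ptger4 and Ptges2 may go unseen.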
